A study of Mus musculus with 16 samples.

Results

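Collagens, the proteins that organise them and the enzymes that cross-link or cut them were followed in RNA from mouse hearts that lacked the mitochondrial protease CLPP, the secreted hormone FGF21, or both. The set holds 32 genes, chosen by symbol from a fixed list of collagens, matrix and fibrosis genes, out of 36499 entries in the deposited count table. Each symbol stood on 1 entry, and all 32 passed the filter on low counts. There were 4 groups of 4 libraries. Double KO mice carried deletions of Clpp and Fgf21, Clpp KO mice of Clpp alone, Fgf21 KO mice of Fgf21 alone, and wild type mice of neither. Mice of every group ate normal chow. The deletions were made in the whole body, with Cre driven by the β-actin promoter acting on floxed Clpp, or on floxed Clpp and floxed Fgf21, so they are not specific to any cell type of the heart. The labels give no age and do not describe how the single Fgf21 KO was bred. Whether each library is a mouse of its own is not stated either, and p-values therefore reflect only how these libraries scatter, part of which may be technical.

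The extracellular matrix of the heart is made mostly by fibroblasts. Fibrillar collagens are secreted as procollagens, trimmed, assembled into fibrils on fibronectin and collagen V, spaced by small leucine-rich proteoglycans and cross-linked by lysyl oxidases. Basement membrane collagens surround each cardiomyocyte and capillary and come in good part from other cells. TGF-β ligands induce matrix genes in fibroblasts, and TIMPs inhibit the proteases that degrade the matrix. A rise of these genes together is the usual transcript sign of cardiac fibrosis.

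The 3 promoters below are shown because their genes stand for different behaviours in the libraries: Col3a1 was among the fibrillar collagens that varied most between libraries of 1 genotype, Col5a1 encodes a chain of the minor fibrillar collagen that varied less, and Timp1 had the widest range of all 32 genes. Each is the run of 250 bases just before the gene's start in RefSeq on GRCm38.p6, on the plus strand and free of annotated exons. They lie at chr1:45311288-45311537 for Col3a1, chr2:27886175-27886424 for Col5a1 and chrX:20869916-20870165 for Timp1. Capitals mark motifs in either orientation. The TATA box was searched for as the letters TATAAA in both strands. The CCAAT box is named for the letters that were searched for. For the GC box these letters were GGGCGG, and none of the motifs overlaps another here.
Col3a1: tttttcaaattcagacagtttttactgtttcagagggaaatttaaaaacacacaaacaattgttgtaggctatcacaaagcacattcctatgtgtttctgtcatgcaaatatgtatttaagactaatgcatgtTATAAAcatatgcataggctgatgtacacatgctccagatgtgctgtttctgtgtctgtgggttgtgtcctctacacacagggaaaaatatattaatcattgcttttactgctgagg
Col5a1: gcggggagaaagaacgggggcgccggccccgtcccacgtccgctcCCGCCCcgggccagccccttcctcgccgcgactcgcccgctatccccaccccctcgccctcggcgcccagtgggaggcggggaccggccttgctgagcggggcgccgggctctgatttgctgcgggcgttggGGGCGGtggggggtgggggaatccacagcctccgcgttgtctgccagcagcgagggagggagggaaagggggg
Timp1: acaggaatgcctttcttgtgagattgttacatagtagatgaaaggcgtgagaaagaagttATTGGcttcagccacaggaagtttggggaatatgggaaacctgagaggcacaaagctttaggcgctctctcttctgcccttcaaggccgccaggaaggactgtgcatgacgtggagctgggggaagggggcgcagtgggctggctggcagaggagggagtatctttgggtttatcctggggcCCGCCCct
The Col3a1 run holds the TATA box once and neither of the other motifs, the Col5a1 run holds the GC box on both strands, and the Timp1 run holds the CCAAT box and the GC box once each. Of 32817 such windows of all genes, searched on both strands, 12.4% held the TATA box, 33.8% the CCAAT box and 32.7% the GC box. RefSeq windows were at hand for 19 of the 32 genes, of which 3 held the TATA box, 6 the CCAAT box and 11 the GC box. A match describes the letters and is not a binding site.

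Library totals ran from 36260545 to 51820727 counts. Mitochondrial DNA gave 56.1% to 60.8% of them in double KO and 56.6% to 60.0% in Clpp KO libraries. It gave 29.2% to 38.8% in Fgf21 KO and 25.5% to 39.4% in wild type libraries. Clpp had 267 to 293 counts in double KO libraries, 308 to 355 in Clpp KO libraries, 1435 to 2636 in Fgf21 KO libraries and 1728 to 2108 in wild type libraries. Fgf21 had 0 counts in every double KO and Fgf21 KO library, 6 to 28 in Clpp KO libraries and 0 to 5 in wild type libraries, so its absence cannot be told from its low level in wild type. Levels below are in CPM, counts scaled to a common total over the 15255 genes tested, after adjusting the library sizes by TMM, the trimmed mean of M-values. The TMM factors were 0.674 to 0.805 in double KO and 0.775 to 0.875 in Clpp KO libraries. They were 1.13 to 1.26 in Fgf21 KO and 1.20 to 1.83 in wild type libraries. Fold changes are log2, ± standard error, from edgeR's quasi-likelihood test, and adjusted p-values are Benjamini-Hochberg over all 15255 genes, with a threshold of 0.05.

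The wild type libraries fell apart into replicates 2 and 4 on one side and replicates 1 and 3 on the other, which bears on every comparison with wild type. In 26 of the 32 genes both replicates 2 and 4 were above both replicates 1 and 3, against 32.8% of all genes tested. The median ratio of their means was 1.60 for the 32 genes and 1.01 for all genes. The exceptions were Col4a1, Col4a2 and Col8a1, which were lower in replicates 2 and 4, and Col15a1, Dcn and Lum, which were mixed. The summed level of 9 fibroblast markers was 456 CPM in wild type replicate 2 and 348 CPM in replicate 4, and 184 and 185 CPM in replicates 1 and 3, with 8 of 9 markers higher in both. It was 169 to 195 CPM in double KO, 177 to 202 CPM in Clpp KO and 207 to 240 CPM in Fgf21 KO libraries. The sum of 8 atrial cardiomyocyte markers reached 10211 CPM in wild type replicate 2 and 6494 CPM in replicate 4, and 146 and 139 CPM in replicates 1 and 3. Adipocyte markers summed to 54.1 and 190 CPM in replicates 2 and 4, and to 15.2 and 13.7 CPM in replicates 1 and 3. Mesothelial markers (8 of 9 higher in both) summed to 41.2 and 39.5 CPM in replicates 2 and 4, against 7.82 and 7.87 CPM in replicates 1 and 3. Macrophage markers (9 of 10) summed to 297 and 262 CPM, against 154 and 150 CPM in replicates 1 and 3. Schwann cell markers (6 of 6) summed to 35.3 and 23.6 CPM, against 12.7 and 12.3 CPM, and cartilage and valve markers (4 of 5) to 7.92 and 4.14 CPM, against at most 1.26 CPM. All 4 ventricular cardiomyocyte markers were lower in replicates 2 and 4, summing to 5201 and 9068 CPM, against 10129 and 9429 CPM. Endothelial and smooth muscle markers were split, with 4 of 8 and 5 of 10 higher, and the smooth muscle actin gene Acta2 had 282 and 488 CPM in replicates 2 and 4, against 86.3 and 83.6 CPM. Libraries at 0 counts occurred for 2 of 8 atrial markers (Sln and Bmp10), 2 of 5 cartilage and valve markers (Hapln1 and Col2a1) and 5 of 6 adipocyte markers (Adipoq, Plin1, Lep, Cfd and Ucp1), and for no marker of the other lists. The part of these markers' cells in the matrix levels was not tested, and in bulk tissue fewer cells of a type and less RNA per cell cannot be told apart. Log2 levels were also set against each gene's median over the libraries. In 1821 genes with short transcripts the median deviation was 0.0003, -0.09, -0.04 and 0.24 in wild type replicates 1 to 4. In 1135 genes with long transcripts it was 0.01, -0.19, 0.04 and -0.23. Fgf21 KO replicate 1 had 0.30 for short and -0.17 for long transcripts. The part of transcript length in the matrix levels was not tested.

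Per kilobase of transcript, decorin (Dcn), a small proteoglycan that coats collagen fibrils, had the highest level of the 32 genes in the knockouts, at 135 CPM per kb in double KO, 148 in Clpp KO and 135 in Fgf21 KO hearts, against 173 in wild type. Mgp, which encodes an inhibitor of calcification, stood at 109, 121 and 130 CPM per kb in double KO, Clpp KO and Fgf21 KO hearts. It was above Dcn only in the wild type mean, 310 CPM per kb, which wild type replicates 2 and 4 raised. Over all 16 libraries Sparc, which encodes a collagen-binding glycoprotein, averaged 96.8, and biglycan (Bgn), a relative of decorin, 70.0 CPM per kb. The basement membrane chains Col4a1 and Col4a2 stood at 41.2 and 34.1 CPM per kb. The fibrillar collagen with the highest level was Col3a1 at 24.1 CPM per kb. Lox was the lowest in every group, at 0.652 CPM per kb over all libraries.

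**Figure D1:**
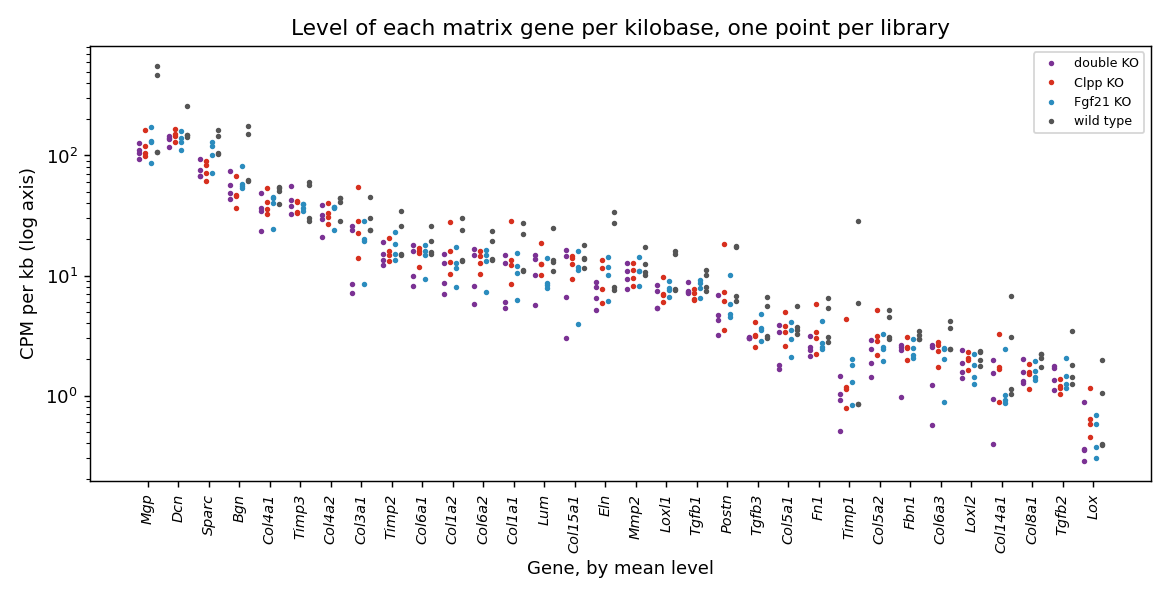
Levels of the 32 genes in CPM per kilobase of transcript (log axis), with each library as a point, for double KO, Clpp KO, Fgf21 KO and wild type hearts. Dcn leads in the knockout groups at 135 to 148 CPM per kb, Mgp in wild type at 310, and Lox is last at 0.652 over all libraries.

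None of the 32 genes passed the edgeR threshold in any of the 6 comparisons. Against wild type, the fitted values of all 32 genes were nonetheless below 0 in double KO, in Clpp KO and in Fgf21 KO hearts, where 51.3%, 54.2% and 51.7% of all genes were. These 3 comparisons share the same 4 wild type libraries. In double KO against wild type, 0 of 32 passed, where 1.53% of all genes did, and the median log2 fold change was -0.61, against -0.01 over all genes. In Clpp KO against wild type, 0 of 32 passed, where 1.63% of all genes did, with a median of -0.36 against -0.04 over all genes. In Fgf21 KO against wild type, 0 of 32 passed, where 0.0459% of all genes did, with a median of -0.43 against -0.01. At an unadjusted p under 0.05 there were 15 genes in double KO, 10 in Clpp KO and 7 in Fgf21 KO hearts, and 22.8%, 21.3% and 9.17% of all genes. DESeq2 called 7 of the 32 in double KO hearts, where it called 6.33% of all genes, and 2 in Clpp KO hearts, where it called 5.51%, all lower. Wild type replicates 1 and 3 were far more alike than any other pair of libraries of 1 group. With their counts summed into 1 library, 6 of the 32 passed in double KO hearts and 3 in Clpp KO hearts by edgeR, where 5.29% and 3.62% of all genes did.

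Without wild type replicates 2 and 4, the medians were -0.20 in double KO, 0.05 in Clpp KO and -0.004 in Fgf21 KO hearts, with 26, 14 and 16 of the 32 genes below 0. Over all genes the medians were 0.004, -0.0006 and 0.02 in the same order. Again 0 of 32 were called, where 0.952%, 1.02% and 0.0386% of all genes were. The shared negative sign thus depended on those libraries in Clpp KO and Fgf21 KO hearts. In double KO hearts it depended on other libraries too. Double KO replicates 3 and 4 and Fgf21 KO replicate 2 were low in collagen. Without these as well, the double KO median was 0.07, with 13 of the 32 genes below 0. They were chosen after seeing the data by their low collagen, so this rise was partly fixed by that choice. In the plot of fold changes the points of Timp1, Mgp and Col14a1 move most in double KO hearts.

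**Figure D2:**
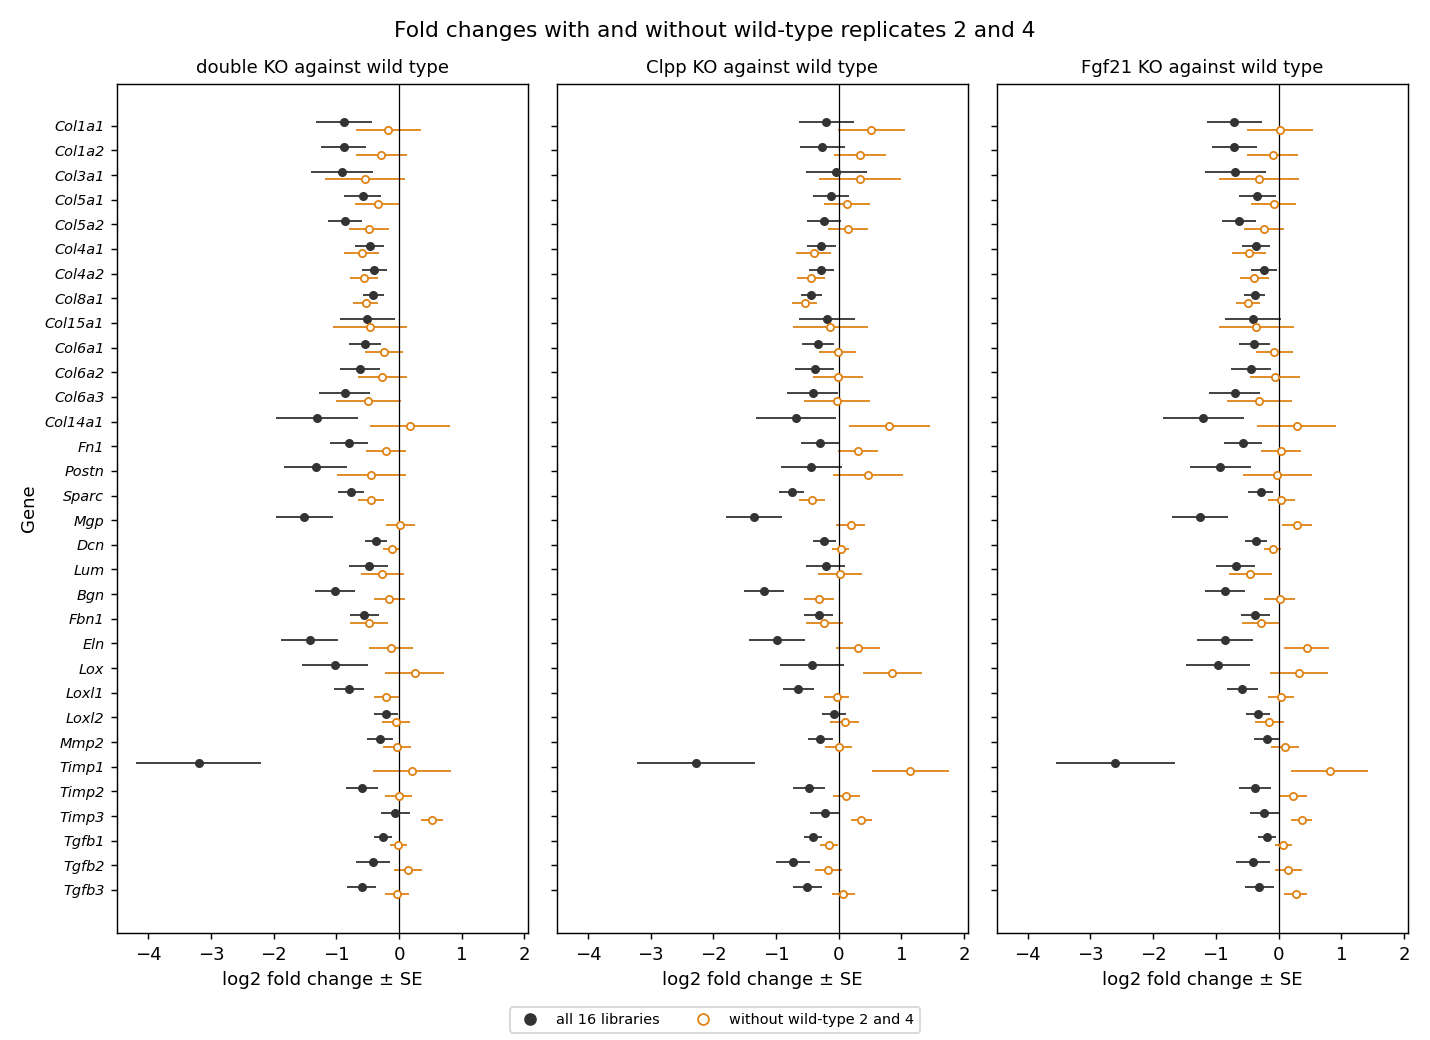
Log2 fold changes of the 32 genes against wild type for double KO, Clpp KO and Fgf21 KO hearts, with all 16 libraries and without wild type replicates 2 and 4. With all libraries every point lies below 0, and without those replicates the medians are -0.20, 0.05 and -0.004.

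Among the fibrillar collagens, which carry the tensile load of the heart wall, levels varied widely within a genotype. Col3a1, the chain of collagen III, had 144, 133, 39.5 and 47.2 CPM in double KO replicates 1 to 4, 157, 306, 126 and 78.0 CPM in Clpp KO, 109, 47.4, 112 and 158 CPM in Fgf21 KO, and 133, 253, 133 and 168 CPM in wild type. Double KO replicates 3 and 4 and Fgf21 KO replicate 2 were low, and the groups overlapped. Its log2 fold change was -0.91 ± 0.49 in double KO against wild type (edgeR adjusted p = 0.273) and -0.87 ± 0.49 in double KO against Clpp KO (adjusted p = 0.994).

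Col1a1, a chain of collagen I, the main fibril of scar, had 88.7, 75.6, 32.0 and 35.4 CPM in double KO, 79.2, 169, 71.9 and 50.7 CPM in Clpp KO, 70.5, 37.3, 62.1 and 90.9 CPM in Fgf21 KO, and 64.1, 164, 66.0 and 132 CPM in wild type. The same 3 libraries were lowest. Its partner chain Col1a2 had 81.5, 68.1, 37.5 and 46.7 CPM in double KO, 84.8, 150.1, 69.3 and 54.9 CPM in Clpp KO, 67.7, 42.6, 62.3 and 92.0 CPM in Fgf21 KO, and 70.2, 162, 72.1 and 127 CPM in wild type. The ratio of Col1a1 to Col1a2 stayed between 0.759 and 1.12 over the 16 libraries.

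Col5a2, a chain of the collagen V that starts fibrils, had 19.2, 16.3, 12.4 and 9.43 CPM in double KO, 20.7, 33.9, 19.0 and 14.5 CPM in Clpp KO, 16.1, 12.9, 16.9 and 21.4 CPM in Fgf21 KO, and 19.5, 34.2, 20.5 and 29.7 CPM in wild type. Every double KO library was below every wild type library. Its log2 fold change there was -0.86 ± 0.27 (edgeR adjusted p = 0.109), and -0.48 without wild type replicates 2 and 4. Col5a1, the other chain, had 14.1 to 32.7 CPM in double KO, 21.8 to 41.9 in Clpp KO, 17.7 to 34.7 in Fgf21 KO and 27.6 to 47.0 in wild type. Col5a2 lies 24614 bases from Col3a1 on chromosome 1, on the opposite strand.

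**Figure D3:**
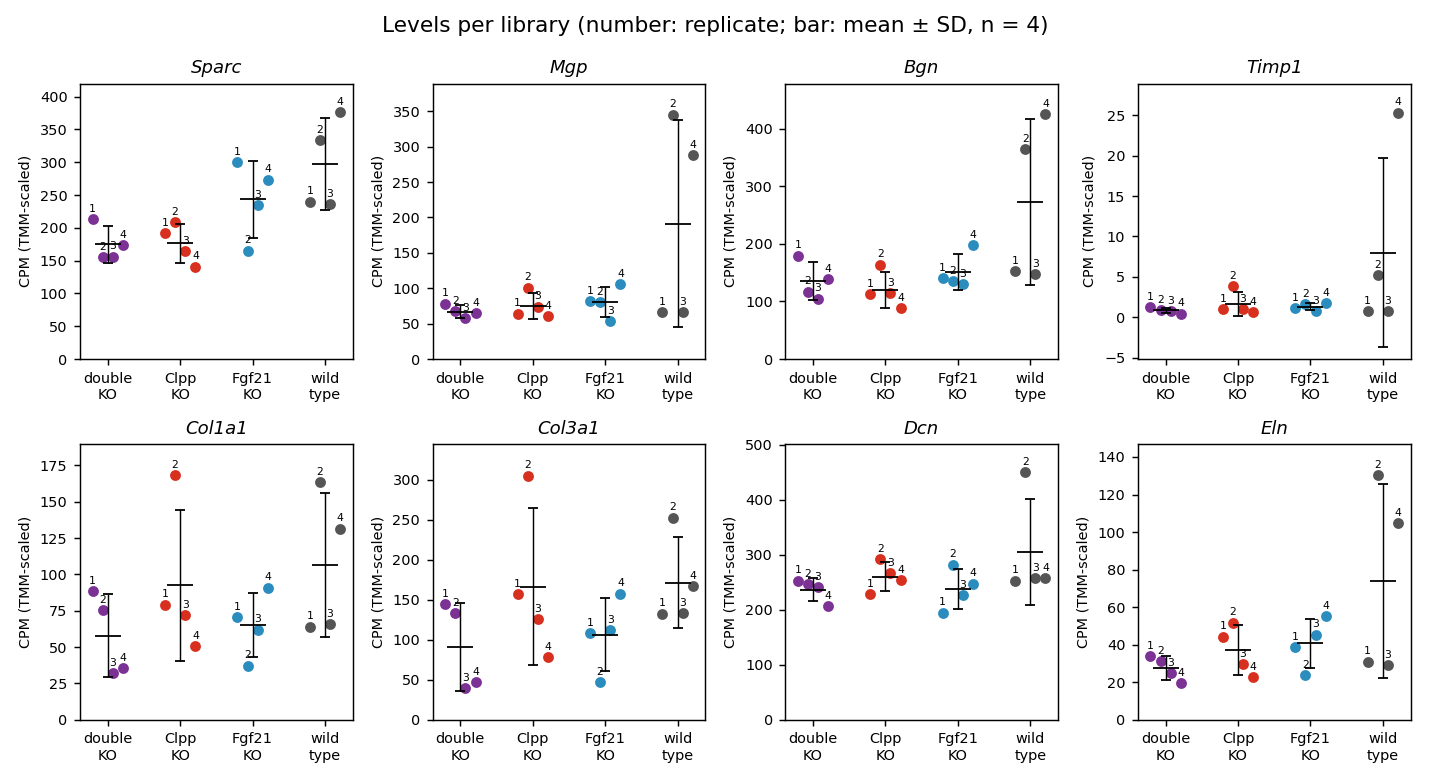
CPM of selected matrix genes in each library, with points for libraries and marks for group means, from double KO through Clpp KO and Fgf21 KO to wild type. The wild type points split into replicates 2 and 4 above and 1 and 3 below for genes such as Mgp, at 345 and 288 CPM against 66.5 and 65.7 CPM.

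The low collagen levels of 3 knockout libraries were set against fibroblast content. These libraries were chosen after seeing the data by their low collagen. Every ratio here has Col3a1 on top, so low ratios in them were partly fixed by that choice. The ratio of Col3a1 to Pdgfra, the receptor gene that marks fibroblasts, was 8.31, 8.32, 2.72 and 3.58 in double KO, 8.56, 17.1, 7.23 and 4.67 in Clpp KO, 8.38, 2.83, 7.17 and 9.12 in Fgf21 KO, and 8.69, 8.75, 8.51 and 8.20 in wild type. In wild type this ratio was nearly the same in all 4 libraries, but the sameness depended on the marker. Over Dpt, another fibroblast marker, Col3a1 stood at 3.29, 1.60, 3.18 and 1.64 in wild type replicates 1 to 4, and over Pi16 at 4.51, 2.81, 4.71 and 1.88. Over Dpt it stood at 1.39 and 1.49 in double KO replicates 3 and 4 and 1.01 in Fgf21 KO replicate 2. Over Pi16 these libraries had 1.93, 2.00 and 1.48, so wild type replicate 4 lay below both double KO replicates. With Dpt and Pi16 the low-collagen libraries thus lay close to wild type replicates 2 and 4. With each of the other fibroblast markers, Tcf21, Ddr2, Thy1, Dpep1, Scara5 and Clec3b, they lay below every wild type library. Over Tcf21 they had 13.6 or less, against 29.8 to 35.5 in wild type. Over Dpep1 they had 0.659, 1.21 and 0.925, against 3.19 to 4.07 in wild type. Over Clec3b they had 3.07, 2.66 and 2.45, against 4.47 to 7.32. The ratio of Col3a1 to Pdgfra was 5.73 ± 3.00 in double KO hearts, 9.40 ± 5.40 in Clpp KO hearts, 6.87 ± 2.81 in Fgf21 KO hearts, and 8.54 ± 0.25 for wild type (SD over 4 libraries each). Over the sum of all 9 fibroblast markers Col3a1 stood at 0.739, 0.756, 0.220 and 0.280 in double KO, 0.863, 1.51, 0.664 and 0.441 in Clpp KO, 0.461, 0.229, 0.50 and 0.659 in Fgf21 KO, and 0.722, 0.555, 0.720 and 0.481 in wild type. Double KO replicates 3 and 4 and Fgf21 KO replicate 2 were again the lowest 3 libraries. Col3a1 over Dcn, another fibroblast product, was 0.164 and 0.229 in double KO replicates 3 and 4, 0.168 in Fgf21 KO replicate 2, and 0.308 to 1.05 in the remaining 13 libraries.

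**Figure D4:**
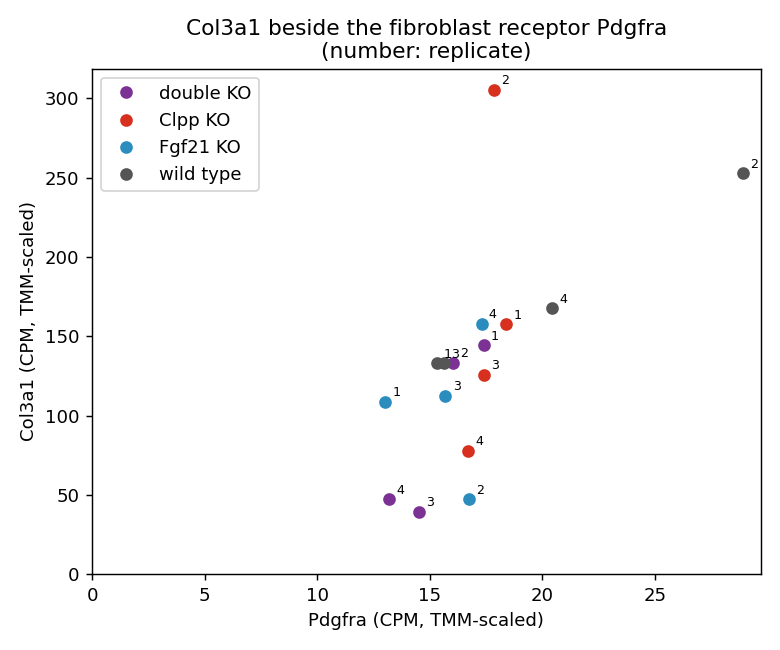
Col3a1 against Pdgfra, both in CPM, with 1 point per library in each of double KO, Clpp KO, Fgf21 KO and wild type hearts. With this marker the wild type libraries lie at a ratio of 8.20 to 8.75, while double KO replicates 3 and 4 and Fgf21 KO replicate 2 lie at 2.72, 3.58 and 2.83.

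Basement membrane and network collagens showed another pattern. Col4a1 had 323, 243, 226 and 155 CPM in double KO, 355, 238, 269 and 217 CPM in Clpp KO, 267, 161, 299.6 and 293 CPM in Fgf21 KO, and 354, 262, 360.4 and 336 CPM in wild type. Col4a2, which is transcribed away from Col4a1 on the opposite strand at a shared start on chromosome 8, followed it, with a ratio of Col4a1 to Col4a2 between 1.04 and 1.41. Col8a1, a short-chain network collagen of vessels, had 8.0, 6.52, 6.77 and 10.3 CPM in double KO, 9.40, 7.76, 8.02 and 5.75 CPM in Clpp KO, 8.13, 6.90, 7.33 and 9.85 CPM in Fgf21 KO, and 11.3, 8.90, 11.4 and 10.4 CPM in wild type. For Col4a1, Col4a2 and Col8a1 the fold changes against wild type were further below 0 without wild type replicates 2 and 4. For Col8a1 they were then -0.53 in double KO, -0.55 in Clpp KO and -0.48 in Fgf21 KO hearts, with adjusted p of 0.333, 0.283 and 0.657 by edgeR.

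Col15a1, a collagen of the basement membrane zone, had 84.4, 74.6, 15.6 and 34.4 CPM in double KO, against 71.2, 92.3, 72.6 and 60.3 CPM in wild type. It had 48.5 to 75.7 CPM in Clpp KO, and in Fgf21 KO 20.6 CPM in replicate 2 and 57.9 to 83.4 CPM in the others. Col6a3, a chain of the beaded-filament collagen VI, had 26.5, 25.9, 5.77 and 12.3 CPM in double KO, 17.6 to 28.1 CPM in Clpp KO, 8.96 CPM in Fgf21 KO replicate 2 and 20.3 to 25.3 CPM in its other replicates, and 24.8 to 42.4 CPM in wild type. These low values fell in the libraries that were low for Col3a1. Col6a1 had 33.7 to 73.4 CPM in double KO, 48.7 to 69.3 in Clpp KO, 38.5 to 73.7 in Fgf21 KO and 61.7 to 107 in wild type. Col14a1, a collagen on the fibril surface, had 2.55 to 12.9 CPM in double KO, 5.66 to 20.9 in Clpp KO, 5.60 to 15.9 in Fgf21 KO and 6.61 to 44.0 in wild type. Col6a1 over Col6a2 stayed between 0.871 and 1.26.

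Matrix glycoproteins link collagen to cells. Sparc had 214, 155, 156 and 174 CPM in double KO, 192, 209, 164 and 141 CPM in Clpp KO, 300.0, 165, 234 and 273 CPM in Fgf21 KO, and 239.9, 334, 236 and 377 CPM in wild type. Every double KO and every Clpp KO library was below every wild type library. The log2 fold change was -0.76 ± 0.20 in double KO (edgeR adjusted p = 0.0704) and -0.75 ± 0.20 in Clpp KO (adjusted p = 0.0726), the smallest adjusted p of the 32 genes in both comparisons. Without wild type replicates 2 and 4 they were -0.45 and -0.43, with adjusted p of 0.495 and 0.482 by edgeR. In Fgf21 KO hearts it was -0.29 ± 0.20 (edgeR adjusted p = 0.599).

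Groups did not overlap, with the knockout lower, for 3 of the 32 genes in double KO against wild type (Col5a2, Sparc and Fbn1), where 4.48% of all genes did so. In Clpp KO against wild type this held for Sparc alone, and for 5.93% of all genes. In Fgf21 KO against wild type it held for 0 of the 32 and 1.57% of all genes.

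Mgp had 78.2, 68.1, 57.3 and 64.8 CPM in double KO, 64.2, 101, 73.9 and 60.9 CPM in Clpp KO, 81.9, 80.3, 53.6 and 106 CPM in Fgf21 KO, and 66.5, 345, 65.7 and 288 CPM in wild type. The knockout libraries lay around wild type replicates 1 and 3. Its log2 fold change in double KO was -1.51 ± 0.45 (edgeR adjusted p = 0.0991) with all libraries and 0.02 without wild type replicates 2 and 4. Periostin (Postn), a product of activated fibroblasts, had 22.1, 15, 10.2 and 13.6 CPM in double KO, 23.4, 58.3, 19.7 and 11.3 CPM in Clpp KO, 18.4, 14.4, 15.2 and 32.6 CPM in Fgf21 KO, and 21.5, 55.4, 19.8 and 56.5 CPM in wild type. Fibronectin (Fn1) had 17.7 to 26.2 CPM in double KO, 18.5 to 48.2 in Clpp KO, 20.2 to 35.1 in Fgf21 KO and 23.3 to 53.8 in wild type.

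Among the small proteoglycans, Bgn had 179, 117, 105 and 138 CPM in double KO, 112, 164, 114 and 88.6 CPM in Clpp KO, 140.0, 136, 130.4 and 197 CPM in Fgf21 KO, and 153, 364, 147 and 426 CPM in wild type. Its log2 fold change was -1.01 ± 0.32 in double KO (edgeR adjusted p = 0.106) and -1.19 ± 0.32 in Clpp KO (adjusted p = 0.0747). Without wild type replicates 2 and 4 these were -0.15 and -0.32. Dcn varied little outside 1 library, with 207 to 253 CPM in double KO, 228 to 291 in Clpp KO, 195 to 282 in Fgf21 KO, and 253, 451, 258 and 258 CPM in wild type. Lumican (Lum), a proteoglycan that sets fibril width, had 13.9 to 36.5 CPM in double KO, 24.7 to 46.0 in Clpp KO, 19.2 to 34.2 in Fgf21 KO and 26.5 to 60.4 in wild type.

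Of the elastic fibre genes, Eln, the elastin gene, had 34.1, 31.2, 25.0 and 19.7 CPM in double KO, 44.3, 51.8, 29.6 and 22.9 CPM in Clpp KO, 38.9, 23.8, 45.3 and 55.0 CPM in Fgf21 KO, and 30.9, 130.3, 29.3 and 105 CPM in wild type. Fbn1, which encodes the microfibril protein fibrillin, had 31.5, 30.2, 28.9 and 11.6 CPM in double KO and 35.2, 41.2, 35.7 and 38.0 CPM in wild type. It had 30.5, 36.8, 29.7 and 23.6 CPM in Clpp KO and 24.8, 26.1, 30.0 and 35.2 CPM in Fgf21 KO. Loxl1, an oxidase that cross-links elastin, had 27.7, 24.6, 17.7 and 17.8 CPM in double KO, 22.8, 32.0, 23.3 and 19.8 CPM in Clpp KO, 26.2, 21.7, 24.9 and 29.6 CPM in Fgf21 KO, and 24.9, 52.7, 25.5 and 49.9 CPM in wild type. The log2 fold change of Loxl1 in double KO was -0.80 ± 0.24 (edgeR adjusted p = 0.101), and -0.20 without wild type replicates 2 and 4. Lox, the founding lysyl oxidase, had 1.35 to 4.16 CPM in double KO, 2.14 to 5.43 in Clpp KO, 1.44 to 3.25 in Fgf21 KO and 1.82 to 9.34 in wild type. Loxl2 had 7.42 to 12.7 CPM in double KO, 8.61 to 12.3 in Clpp KO, 6.59 to 11.8 in Fgf21 KO and 9.36 to 12.5 in wild type. Fbn1 shares 19.9% of its 31-base words with Gm9913, and Loxl2 43.3% with Gm21451, so their counts are uncertain.

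Timp1, a protease inhibitor that rises in injured tissue, had 1.28, 0.916, 0.807 and 0.449 CPM in double KO, 1.01, 3.83, 1.04 and 0.691 CPM in Clpp KO, 1.16, 1.59, 0.733 and 1.79 CPM in Fgf21 KO, and 0.751, 5.25, 0.749 and 25.3 CPM in wild type. A single wild type library held most of the wild type signal. The log2 fold change in double KO was -3.20 ± 1.00 (edgeR adjusted p = 0.110), and 0.21 without wild type replicates 2 and 4. Timp3, an inhibitor bound to the matrix, had 199.9, 154, 178 and 263 CPM in double KO, 193, 155, 198 and 161 CPM in Clpp KO, 185, 187, 163 and 172 CPM in Fgf21 KO, and 134, 283, 142 and 268 CPM in wild type. Without wild type replicates 2 and 4 its log2 fold change was 0.52 in double KO hearts (edgeR adjusted p = 0.246). Timp3 shares 21.1% of its 31-base words with Syn3. Timp2 had 45.2 to 71.0 CPM in double KO, 49.2 to 76.3 in Clpp KO, 49.9 to 85.1 in Fgf21 KO and 54.9 to 129 in wild type. Mmp2, a gelatinase, had 24.0 to 38.9 CPM in double KO, 25.1 to 38.8 in Clpp KO, 25.2 to 44.1 in Fgf21 KO and 30.8 to 53.7 in wild type.

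TGF-β ligands signal to fibroblasts, and Tgfb1 had the smallest spread of the 32 genes. Tgfb1 had 19.2, 16.3, 15.5 and 16 CPM in double KO, 13.7, 15.6, 14 and 16.8 CPM in Clpp KO, 18.9, 14.2, 20.1 and 17.1 CPM in Fgf21 KO, and 16.1, 22.0, 17.5 and 24.3 CPM in wild type. Its log2 fold change was -0.41 ± 0.14 in Clpp KO (edgeR adjusted p = 0.131). Tgfb2 had 5.72 to 8.94 CPM in double KO, 5.24 to 7.04 in Clpp KO, 5.90 to 10.6 in Fgf21 KO and 6.39 to 17.5 in wild type. Tgfb3 had 10.2 to 10.4 CPM in double KO, 8.52 to 14 in Clpp KO, 9.64 to 16.3 in Fgf21 KO and 10.3 to 22.2 in wild type.

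Between the knockouts 0 of 32 genes passed. The wild type libraries enter there only through the filter on low counts, the scaling and the shared estimate of the spread. In double KO against Clpp KO, 0.059% of all genes passed and the median of the 32 was -0.22, with 27 below 0 where 48.2% of all genes were. The smallest p was that of Col5a2, at -0.62 ± 0.27 (edgeR adjusted p = 0.994, 95% interval -1.22 to -0.02). In double KO against Fgf21 KO, 0.892% of all genes passed and the median was -0.17, with 29 below 0 where 51.2% of all genes were. Sparc had the smallest p there, at -0.48 ± 0.20 (edgeR adjusted p = 0.635). At an unadjusted p under 0.05 there was 1 of 32 genes in each, and 3.55% and 7.09% of all genes. DESeq2 also called 0 of 32 in both, where it called 0.229% and 1.37% of all genes, and so did limma voom, at 0.269% and 2.43%. The groups overlapped for all 32 genes, while 2.67% of all genes in double KO against Clpp KO and 1.92% in double KO against Fgf21 KO were lower without overlap. Tissue content may differ between the knockout groups too. All 8 atrial cardiomyocyte markers had fitted values below 0 in both comparisons, though 0 passed. Their median log2 fold change was -1.51 with Clpp KO as the reference and -1.38 with Fgf21 KO. The part of atrial tissue in the signs of the 32 genes was not tested.

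The interaction asks whether loss of Fgf21 acted differently without CLPP than with it. It gave 0 of 32 and 0% of all genes by edgeR, with 1 of 32 at an unadjusted p under 0.05, where 1.96% of all genes were. That gene was Bgn, at 1.02 ± 0.45 (edgeR adjusted p = 1.00). The median of the 32 was 0.22, with 2 below 0 where 46.9% of all genes were, with all libraries and -0.20 without wild type replicates 2 and 4.

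Within genotypes the 32 genes spread more than most. The median within-group SD of log2 levels was 0.44 for them and 0.26 for all genes, and 29 of 32 were above that median. It ran from 0.20 for Tgfb1 to 1.40 for Timp1. By group the medians of the 32 genes were 0.40 in double KO, 0.30 in Clpp KO, 0.38 in Fgf21 KO and 0.48 in wild type. Those of all genes were 0.21, 0.15, 0.23 and 0.33 in the same order, so wild type spread most for all genes too. Members tended to be extreme in the same libraries. Double KO replicate 1 was the highest of its group for 27 of the 32 genes (20.8% of all genes) and replicate 3 the lowest for 17 (32.1%). Clpp KO replicate 4 was lowest for 27 (27.0% of all genes) and replicate 2 highest for 27 (25.3%). Fgf21 KO replicate 2 was lowest for 19 (28.6% of all genes) and replicate 4 highest for 23 (27.6%). Wild type replicate 2 was highest for 21 (30.4% of all genes). Each library named here as highest also had the highest atrial and mesothelial marker sums of its group. The atrial sum was 1481 CPM in double KO replicate 1, against 209 to 287 CPM in the others. It was 3574 CPM in Clpp KO replicate 2 (others 236 to 1681 CPM) and 2915 CPM in Fgf21 KO replicate 4 (others 397 to 1597 CPM). Of the libraries named as lowest, only Clpp KO replicate 4 had the lowest atrial sum. The part of tissue content in this spread was not tested.

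**Figure D5:**
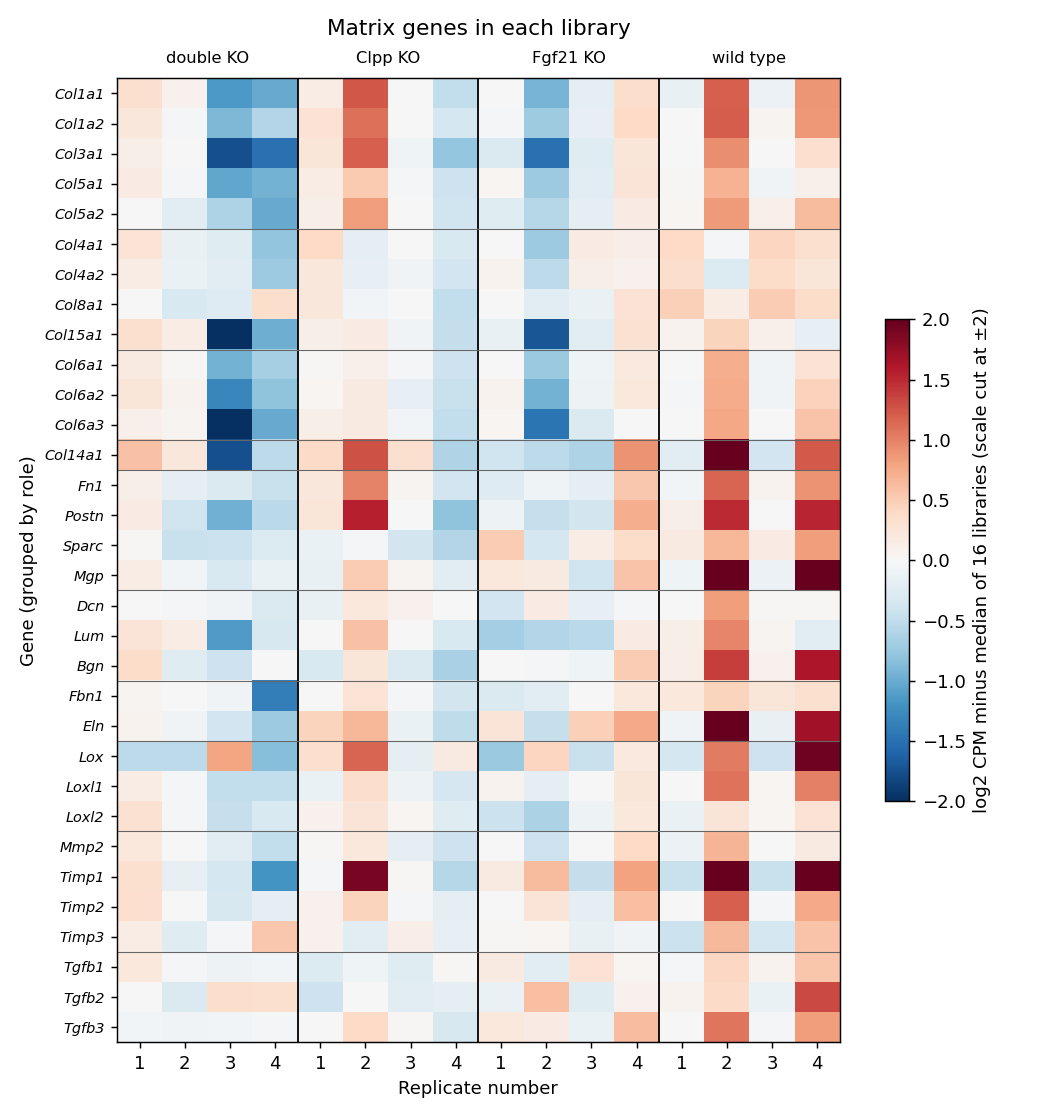
Deviation of each of the 32 genes from its median over the 16 libraries, in log2 units, with genes grouped by role down the page and libraries from double KO to wild type across. Wild type replicates 2 and 4 are high for most genes outside the basement membrane collagens, and double KO replicates 3 and 4 and Fgf21 KO replicate 2 are low for most collagens.

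Other genes of the matrix pathways were followed in 8 lists, and their calls stand against 1.53%, 1.63% and 0.0459% of all genes called in double KO, Clpp KO and Fgf21 KO against wild type. Collagen processing enzymes gave 0 called of 19 in all 3 comparisons with wild type, and activated fibroblast genes 0 of 11. Basement membrane genes gave 0 of 15, other collagens 0 of 9, other proteases and inhibitors 0 of 16, and other proteoglycans and elastic fibre genes 0 of 15. Of 23 TGF-β signalling genes, 1 fell in Clpp KO hearts. This was Acvrl1, a receptor of the TGF-β family in endothelium, which had 19.9, 19.5, 21.2 and 21.0 CPM in Clpp KO and 27.8, 34.1, 27.6 and 35.8 CPM in wild type, a log2 fold change of -0.62 ± 0.11 (edgeR adjusted p = 0.00813). Without wild type replicates 2 and 4 it was -0.44 (edgeR adjusted p = 0.0973). Endothelial markers summed to 424 to 515 CPM in Clpp KO libraries. In wild type replicates 1 to 4 they summed to 581, 622, 582 and 458 CPM, lowest in replicate 4, where Acvrl1 was highest. Of the 8 endothelial markers, 7 were below 0 in Clpp KO against wild type, where 54.2% of all genes were, with a median of -0.27. One of them, Pecam1, an adhesion molecule of endothelial junctions, passed as lower, with 88.3, 81.4, 87.8 and 80.3 CPM in Clpp KO and 116, 150.4, 113 and 119 CPM in wild type (-0.56 ± 0.12, edgeR adjusted p = 0.0283). Its call was lost without wild type replicate 2 or 4 or any 1 Clpp KO library, and under a replicate block (edgeR adjusted p = 0.0542 to 0.0962 over these). Of the smooth muscle and pericyte markers, Cspg4, a proteoglycan of pericytes, passed as lower, with 13.5, 12.9, 11.6 and 10.8 CPM in Clpp KO and 17.5, 20.4, 17.2 and 27.2 CPM in wild type (-0.75 ± 0.18, edgeR adjusted p = 0.0484). Its call was lost in 11 of 16 fits that left out 1 library, which were those without wild type replicate 2 or 4, any Clpp KO library, Fgf21 KO replicate 1, 3 or 4, or double KO replicate 1 or 2 (edgeR adjusted p up to 0.147). The part of these cell types in the level of Acvrl1 was not tested.

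Of 20 integrins and matrix receptors, Itga1, a collagen-binding integrin chain, fell in Clpp KO hearts. It had 24.1, 18.3, 22.8 and 22.5 CPM in Clpp KO and 35.1, 28.8, 35.0 and 27.1 CPM in wild type, a log2 fold change of -0.52 ± 0.11 (edgeR adjusted p = 0.0214). Like Col4a1 and unlike most of the 32 genes it was higher in wild type replicates 1 and 3 than in 2 and 4. Its call was lost without Clpp KO replicate 2, 3 or 4 (edgeR adjusted p = 0.0846, 0.0597 and 0.0611), while without wild type replicates 2 and 4 it passed in Clpp KO at -0.67 (edgeR adjusted p = 0.00320) and in double KO at -0.51 (adjusted p = 0.0262). The reference there is wild type replicates 1 and 3 alone, which may be related samples, so the spread may be understated and these passes are uncertain. Itga10, another collagen-binding chain, fell in double KO hearts, with 1.41, 1.43, 1.65 and 0.962 CPM against 2.14, 6.31, 1.89 and 4.34 CPM in wild type. Its log2 fold change was -1.43 ± 0.33 (edgeR adjusted p = 0.0406), and -0.57 without wild type replicates 2 and 4 (adjusted p = 0.431). Its call was lost in 11 of 16 fits that left out 1 library, which were those without any double KO or Clpp KO library, wild type replicate 2 or 4, or Fgf21 KO replicate 1 (edgeR adjusted p up to 0.121), and under a replicate block (-1.31, edgeR adjusted p = 0.0748).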

How the data were processed

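The submitters' processing notes name the tools fastp 0.21.0, kallisto 0.46.1, DESeq2 1.30.1, edgeR 3.32.1 and R 4.0.3, and the build GRCm38.p6. The authors deposited whole-number counts per gene. No source used here says how the estimates of kallisto became whole, and reads shared by similar genes may be split between them. Counting by strand is not stated.

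Counts were tested as deposited, with R 4.3.3. Genes were kept by filterByExpr (count minimum 10, total minimum 15), leaving 15255. One edgeR 4.0.16 quasi-likelihood model with TMM scaling was fitted to the 16 libraries (residual degrees of freedom 12, common coefficient of biological variation 0.249). It was also run on simulated counts with a common spread for all genes and no split within wild type. That run cannot show how calls behave under the split seen here. DESeq2 1.42.0 and limma 3.58.1 were alternatives. Intervals of fold changes are 95%. Levels per kilobase use the longest coding transcript of GENCODE M21.

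The members and lists were chosen with earlier results of these data known. Every member is accounted for, and those given in most detail have the 6 smallest p in a comparison. From other lists called genes are named. Members and genes outside this rule, and the low-collagen libraries, were chosen after values were seen. Some results for genes outside the 32 are not reported here. Of all pairs within a group, replicates 1 and 3 of wild type lay closest, at a chi-square of 5.68 per degree of freedom, against 23.3 for the next pair. This is above sampling noise and they were kept separate, but the labels do not say whether they are related samples, and if so wild type has 3 independent libraries.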

Additional observations from a re-analysis of the deposited data

Results flagged for a closer look

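In 8 of 128 groups of 4 libraries, 1 library stood far from the other 3 by Dixon's test at the 95% level, and chance flags about 1 in 20 groups. In Fgf21 KO replicate 2, Col4a2 had 155 CPM, against 235 to 242 CPM in the other Fgf21 KO libraries. Fgf21 KO replicate 4 was high for Col14a1, at 15.9 CPM against 5.60 to 6.55, for Lum, at 34.2 CPM against 19.2 to 21.1, and for Bgn, at 197 CPM against 130.4 to 140.0. Double KO replicate 4 had 11.6 CPM of Fbn1, against 28.9 to 31.5 in the other double KO libraries. Double KO replicate 3 had 4.16 CPM of Lox, against 1.35 to 1.69. Clpp KO replicate 2 had 3.83 CPM of Timp1, against 0.691 to 1.04. Wild type replicate 2 had 451 CPM of Dcn, against 253 to 258.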

How the results depend on the processing

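With all 29 alternatives the median of the 32 genes was below 0 in 28 for double KO, 25 for Clpp KO and 28 for Fgf21 KO against wild type. The causes of the shifts below were not tested.

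Leaving out 1 library gave 129 to 1116 genes called in double KO against wild type and 114 to 949 in Clpp KO, with 0 to 6 and 0 to 3 of the 32. The highest counts came without wild type replicate 1 or 3, and leaving out Fgf21 KO replicate 2 gave 1 in each (Sparc).

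Library size alone, which shifts the median of all genes by -0.92, -0.79 and -0.70, called 13124, 11933 and 10858 genes in double KO against wild type, Clpp KO against wild type and double KO against Fgf21 KO, with 32, 26 and 15 of the 32 at medians of -1.58, -1.16 and -0.84. The wild type median level was then 56.6 CPM. DESeq2 called 966, 841 and 34 genes in double KO, Clpp KO and Fgf21 KO against wild type, 35 and 209 in double KO against Clpp KO and Fgf21 KO, and 3 in the interaction, with 7 and 2 of the 32 in the first and second. Limma voom called 964, 2815, 111, 41, 370 and 1, with 1 and 4 of the 32 in the first and second (Timp3 higher in Clpp KO, the others lower) and a double KO median of -0.13. It reversed Mgp in double KO (0.00142) and Clpp KO (0.0630), Timp1 in double KO (0.16) and Fgf21 KO (0.23), Timp2 in double KO against Fgf21 KO (0.0368) and Timp3 in the interaction (-0.22).

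An atrial covariate gave 148, 968 and 13 genes in double KO, Clpp KO and Fgf21 KO against wild type and 1 in the interaction, with 4 of the 32 in Clpp KO. It reversed Fn1 in double KO against Clpp KO (0.0175) and, against Fgf21 KO, Eln (0.0389), Tgfb3 (0.0369), Loxl1 (0.119), Timp2 (0.164) and Col5a2 (0.0906). A fibroblast covariate gave 103, 146 and 223 genes in double KO against wild type, Clpp KO against wild type and double KO against Fgf21 KO, with medians of -0.0986 and 0.0822 in the first and second. It reversed Mgp in double KO (0.0517) and Clpp KO (0.0682) and, in double KO against Fgf21 KO, Eln (0.0865), Tgfb3 (0.00473), Loxl1 (0.106), Timp2 (0.0799) and Col5a2 (0.0343). Summing wild type replicates 1 and 3 gave 821 and 562 genes in double KO and Clpp KO, with 6 and 3 of the 32.

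Without wild type replicates 2 and 4, 148, 159, 15 and 241 genes were called in double KO against wild type, Clpp KO against wild type, and double KO against Clpp KO and Fgf21 KO. Medians were -0.203, 0.0510 and -0.00436 in double KO, Clpp KO and Fgf21 KO, and -0.20 in the interaction. Reversed were Mgp in double KO (0.0181), Clpp KO (0.187), Fgf21 KO (0.29) and the interaction (-0.46), Timp1 in double KO (0.21) and Fgf21 KO (0.82), Bgn (0.0213) and Loxl1 (0.0347) in Fgf21 KO, and Timp3 in the interaction (-0.21). Leaving out the 3 low-collagen libraries, chosen after seeing the data by their low collagen, gave 107 genes in double KO against wild type and 4 against Clpp KO. Leaving out these and wild type replicates 2 and 4 gave 547 genes in Clpp KO, 21 in Fgf21 KO, 25 and 429 in double KO against Clpp KO and Fgf21 KO, and 2 in the interaction, with medians of 0.0744, 0.0513 and 0.0865 in double KO, Clpp KO and Fgf21 KO. It reversed Mgp (0.145), Loxl1 (0.0535) and Timp1 (0.55) in double KO, Mgp (0.19) in Clpp KO, Mgp (0.30), Timp1 (0.72), Bgn (0.0712) and Loxl1 (0.109) in Fgf21 KO, and Mgp (-0.34) and Timp3 (-0.35) in the interaction.

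Replicate numbers did not pair the libraries, with correlations of same-numbered deviations from -0.24 to 0.35 and 3 of 16 libraries closest to their own number. A replicate block gave 146 genes called in Clpp KO against wild type, against 249 without the block, and 0 of the 32. Depth limits Timp1 most, with as few as 14 counts in 1 double KO library, but its 41 to 1235 counts over the wild type libraries differ by more than counting error.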

Other observations

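Genes outside the matrix were also read in libraries with low fibrillar collagen. These genes were chosen after their values were seen. Pdk4, a kinase that restrains pyruvate oxidation and is induced by fasting, had 1295 CPM in double KO replicate 3 and 1442 CPM in Fgf21 KO replicate 2, but also 1335 and 1286 CPM in Clpp KO replicates 1 and 3. Hspa5, a chaperone of the endoplasmic reticulum, had 174 CPM in double KO replicate 3 and 198 CPM in Fgf21 KO replicate 2, the lowest values of the 16 libraries. Double KO replicate 4, the other low-collagen library, did not share this: it had 177 CPM of Pdk4, the lowest of the 16 libraries, and 239 CPM of Hspa5, above the 235 CPM of Clpp KO replicate 2. The part of these states in the collagen levels was not tested.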
